A study of Mus musculus with 10 samples.

Results

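Keratins of the periderm and of simple epithelia were examined in the developing outer ear through 9 genes, named by symbol: *Krt4*, *Krt6a*, *Krt7*, *Krt8*, *Krt17*, *Krt18*, *Krt19*, *Krt23* and *Krt80*. All 9 were found among the 53465 genes of the count table, and all 9 passed the filter on low counts that left 16426 genes for testing. They were measured by bulk RNA-seq of whole pinna prominences micro-dissected from mouse embryos at E14.5, on a C57BL/6J background. The comparison set 5 WT libraries against 5 mEC1dup/dup libraries, labelled Knock-In (KI), from animals with an added copy of the *Hmx1* enhancer mEC1 at both alleles. The 5 libraries of a genotype are independent biological replicates. By the paper's account, replicates of its mouse work were siblings that did not share a litter, and the litter of each library is not given. No agent was given to either group, and both groups differ by the knocked-in mEC1 copy alone as far as the labels and methods state. Embryo sex is not given, and *Xist* and embryonic globin, described below, differed between the groups.

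Keratins are the intermediate filament proteins of epithelial cells, and a filament needs a type I and a type II partner. The genes of *Krt17*, *Krt18*, *Krt19* and *Krt23* encode type I keratins and those of *Krt4*, *Krt6a*, *Krt7*, *Krt8* and *Krt80* encode type II keratins. *Krt8* and *Krt18* form the partner pair of simple, single-layered epithelia, with *Krt7* and *Krt19* often added, while *Krt17* and *Krt6a* mark periderm, appendage and activated epidermis. The periderm is the transient outer layer that covers the embryonic epidermis while the layers below it stratify, and *Krt4* is widespread in such non-cornified stratified surfaces. The members other than *Krt17*, *Krt19* and *Krt23*, which lie on chromosome 11, lie on chromosome 15, where *Krt18* is the type I exception of the type II cluster.

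In mEC1dup/dup libraries *Krt4*, *Krt6a* and *Krt19* fell, and *Krt8* and *Krt18* had small positive fold changes that did not pass the test. Values are TMM-scaled CPM, that is, read counts scaled to the size of the library. A gene was called where its p from edgeR's quasi-likelihood test, adjusted by Benjamini-Hochberg over all tested genes, was 0.05 or less and its average log2 CPM was 1 or more. Of the 9 keratins, 3 were called lower, against 1.81% of all tested genes, and 0 were called higher, against 0.834%. DESeq2 called the same 3 lower and 0 higher, whereas limma-voom called only *Krt4* lower and 0 higher, with *Krt6a* at an adjusted p of 0.0693 and *Krt19* at 0.0540. Leaving out WT replicate 1 or mEC1dup/dup replicate 2, 3 or 4 took the edgeR count of lower keratins to 1. Covariate fits described below, on *Xist*, embryonic globin share and a pan-epithelial sum, took it to 0. Those fits left few calls among all tested genes. At an unadjusted p under 0.05, 6 of the 9 passed in edgeR, against 16.2% of all tested genes, and each of these 6 had a negative log2 fold change. In all, 7 of the 9 had a negative log2 fold change and 2 a positive one. Their median log2 fold change was -0.55, beside -0.0041 over all tested genes. The 6, the 7 and this median include *Krt23*, whose counts were above 10 in every WT library but not in every mEC1dup/dup library. With at least 10 counts required in every library, 8 of the 9 were tested and 5 had an unadjusted p under 0.05 in edgeR. In bulk samples, fewer cells of a type and less RNA per cell cannot be told apart.

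The promoters of 4 of the genes are shown, those of *Krt4*, *Krt19* and *Krt80* as examples of keratins with separate groups or a call and that of *Krt8*, which had neither, for contrast. Each is the 250 bases before the start of the canonical transcript, read from GRCm39 5′ to 3′ on the gene's strand, which is the minus strand for all 4. They span chr15:101833171-101833420 for *Krt4*, chr11:100036947-100037196 for *Krt19*, chr15:101268044-101268293 for *Krt80* and chr15:101912918-101913167 for *Krt8*. Capitals mark matches on either strand to GCCNNNGGC, the core of AP-2 sites, AACCNGTT, the core of grainyhead-like sites, CAAGTG, the core bound by HMX factors, and TATAAA, the TATA box.
Krt4: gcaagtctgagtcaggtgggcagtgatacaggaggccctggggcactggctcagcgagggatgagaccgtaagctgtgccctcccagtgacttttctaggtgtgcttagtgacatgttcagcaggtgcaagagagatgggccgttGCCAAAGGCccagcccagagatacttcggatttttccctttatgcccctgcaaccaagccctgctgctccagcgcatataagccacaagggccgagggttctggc
Krt19: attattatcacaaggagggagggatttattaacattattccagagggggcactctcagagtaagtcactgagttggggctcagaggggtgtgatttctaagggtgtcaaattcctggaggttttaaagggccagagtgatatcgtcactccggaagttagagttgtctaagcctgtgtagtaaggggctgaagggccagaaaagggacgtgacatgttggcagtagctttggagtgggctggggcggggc
Krt80: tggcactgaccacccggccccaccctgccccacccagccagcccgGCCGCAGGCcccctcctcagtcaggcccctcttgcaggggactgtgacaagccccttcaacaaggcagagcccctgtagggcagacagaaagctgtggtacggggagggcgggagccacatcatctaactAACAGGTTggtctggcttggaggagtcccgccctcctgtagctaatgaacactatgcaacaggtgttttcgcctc
Krt8: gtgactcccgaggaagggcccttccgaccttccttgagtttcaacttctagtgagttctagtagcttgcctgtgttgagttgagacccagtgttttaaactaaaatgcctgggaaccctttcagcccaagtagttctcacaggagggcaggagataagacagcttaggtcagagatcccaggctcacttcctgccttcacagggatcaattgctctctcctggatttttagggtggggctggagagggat
The AP-2 core was found in 4 of the 9 promoters (*Krt4*, *Krt7*, *Krt18* and *Krt80*) and in 15.6% of the 16321 promoters of tested genes. The grainyhead-like core was found in that of *Krt80* and in 1.71% of promoters. CAAGTG and TATAAA were found in 0 of the 9 and in 11% and 8.09% of promoters, respectively. A match is a description of letters in this window only.

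*Krt4* fell the furthest of the 9. It encodes a type II keratin of internal and surface stratified epithelia, on chromosome 15 from 101826970 to 101833170 (ENSMUSG00000059668, GRCm39, minus strand). Its CPM in WT replicates 1 to 5 were 38.5, 22.3, 13.4, 17.9 and 12.0. Its CPM in mEC1dup/dup replicates 1 to 5 were 5.03, 2.37, 3.86, 4.21 and 5.90. The lowest WT library was still above the highest mEC1dup/dup library. The mean was 20.8 ± 10.7 CPM in WT and 4.27 ± 1.33 CPM in mEC1dup/dup (SD, n = 5 for both). On the log2 scale the fold change was -2.28 with a standard error of 0.32 and an adjusted p of 0.00393 in edgeR, and *Krt4* ranked 30 by p among all tested genes. The WT libraries themselves differed by 3.22 times from lowest to highest, with replicate 1 at the top.

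*Krt6a* encodes a type II keratin of hair follicle and activated epithelium, on chromosome 15 from 101598345 to 101602742 (ENSMUSG00000058354, minus strand). The CPM were 6.18, 2.71, 3.31, 1.44 and 2.88 in WT and 1.26, 1.21, 1.25, 1.02 and 1.03 in mEC1dup/dup. The groups did not overlap, although WT replicate 4 lay close to the mEC1dup/dup libraries. All mEC1dup/dup values stayed within 1.23 times of each other, whereas WT values spread over 4.29 times. In edgeR its log2 fold change was -1.51 with a standard error of 0.32 and an adjusted p of 0.0250. The call of *Krt6a* held in 4 of the 10 fits that left out 1 library. The level rests on 19 to 107 reads per library. Of its annotated exon bases, 24.9% overlap exons of the gene models *Gm49428* and *Gm55158*, neither of which could be matched to the table. Exact runs of at least 50 bases, shared with transcripts of these models, *Gm5478* or *Gm55157*, make up 29% of its canonical transcript. Of these only *Gm5478*, whose exons do not overlap those of *Krt6a*, could be matched, and it had 0 reads in every library. How the authors' counting treated shared reads thus could not be determined.

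*Krt19*, on chromosome 11 from 100031636 to 100039491 (ENSMUSG00000020911, minus strand), encodes the type I keratin without a tail domain that is found in periderm and simple epithelia. WT libraries had 37.7, 31.2, 23.7, 21.8 and 16.8 CPM. mEC1dup/dup libraries had 15.9, 13.3, 12.4, 14.6 and 17.0 CPM. The groups met at one point, since mEC1dup/dup replicate 5 was just above WT replicate 5, and the other 4 mEC1dup/dup libraries were below every WT library. The edgeR test gave a log2 fold change of -0.84 with a standard error of 0.18 and an adjusted p of 0.0287. With 1 library left out at a time, *Krt19* was called in 5 of the 10 fits. Of the exon bases of *Krt19*, 17.7% overlap those of the gene model *Gm73150*, which was not analysed here.

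**Figure D1:**
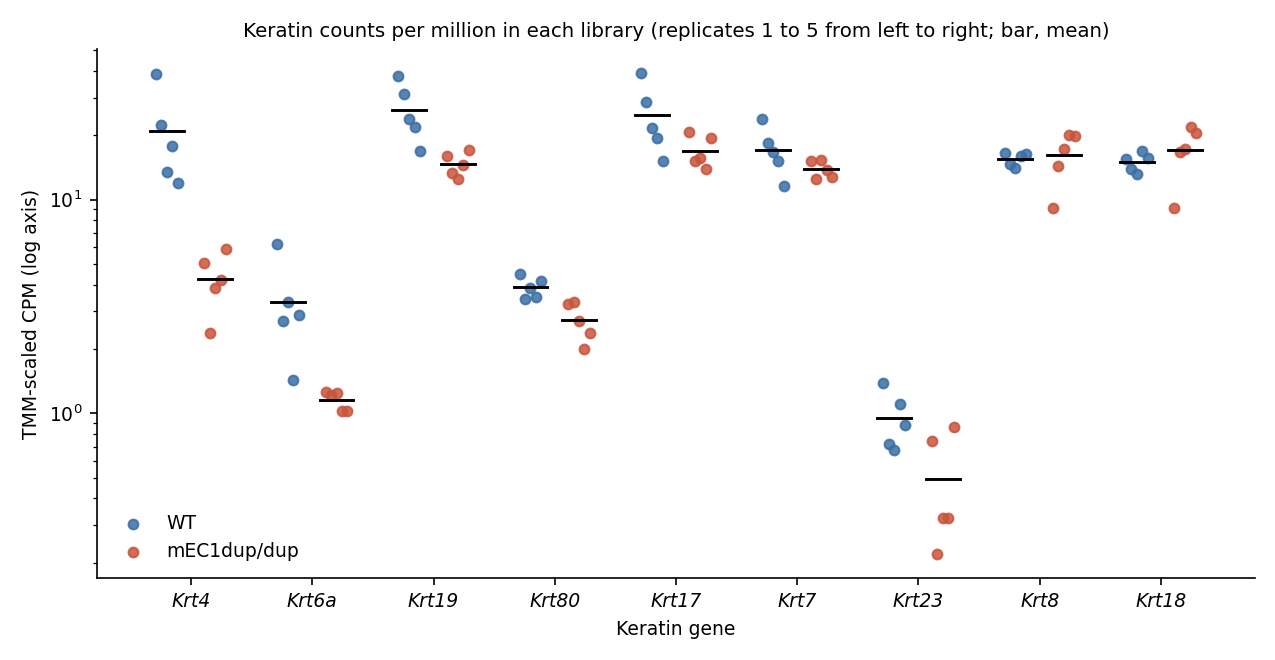
TMM-scaled CPM (log axis) of each keratin in the 5 WT (blue) and 5 mEC1dup/dup (red) libraries, with replicates 1 to 5 from left to right and a bar at the mean. The mEC1dup/dup points of *Krt4*, *Krt6a* and *Krt80* lie wholly below the WT points, and those of *Krt8* and *Krt18* spread around the WT points.

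*Krt80* was the third keratin with separate groups, and it did not pass the test. It encodes a type II keratin that sits near the desmosomes of stratified epithelia, and lies on chromosome 15 from 101245325 to 101268043 (ENSMUSG00000037185). The CPM were 4.51, 3.43, 3.87, 3.49 and 4.15 in WT and 3.26, 3.31, 2.72, 2.00 and 2.38 in mEC1dup/dup. The gap between the lowest WT and the highest mEC1dup/dup library was narrow. Its log2 fold change was -0.51 with a standard error of 0.17, a 95% interval of -0.88 to -0.15 and an adjusted p of 0.141 in edgeR. All mEC1dup/dup libraries were thus below all WT libraries for 3 of the 9 keratins, against 2.75% of all tested genes. All were above for 0 of the 9, against 2.33%.

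*Krt17*, the type I keratin of periderm and skin appendages, had 38.9, 28.7, 21.5, 19.5 and 15.1 CPM in WT. It had 20.6, 15.2, 15.6, 13.9 and 19.3 CPM in mEC1dup/dup. The groups overlapped, with WT replicates 1 to 3 above every mEC1dup/dup library and WT replicates 4 and 5 within their range. The log2 fold change was -0.55 with a standard error of 0.21, a 95% interval of -1.01 to -0.09 and an adjusted p of 0.216 in edgeR.

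*Krt7*, the type II partner of simple and glandular epithelia, had 23.9, 18.3, 16.7, 15.1 and 11.6 CPM in WT and 15.1, 12.5, 15.3, 13.8 and 12.7 CPM in mEC1dup/dup. Every mEC1dup/dup value fell inside the WT range. Its log2 fold change was -0.30 with a standard error of 0.15, a 95% interval of -0.63 to 0.03 and an adjusted p of 0.359 in edgeR. *Krt23*, a type I keratin, had only 4 to 24 reads in any library. Its CPM were 1.39, 0.720, 0.673, 1.11 and 0.886 in WT and 0.743, 0.220, 0.326, 0.324 and 0.866 in mEC1dup/dup, and the groups overlapped. For this gene the log2 fold change was -0.94 with a standard error of 0.38 and an adjusted p of 0.230 in edgeR. Its average log2 CPM of -0.26 kept it below the level needed for a call.

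*Krt8* and *Krt18* were the exceptions in direction. For *Krt8* (chromosome 15 from 101905133 to 101912917, ENSMUSG00000049382) the CPM were 16.5, 14.7, 13.97, 16.1 and 16.3 in WT and 9.09, 14.4, 17.3, 20.1 and 19.8 in mEC1dup/dup. For *Krt18* (chromosome 15 from 101936615 to 101940462, ENSMUSG00000023043) the CPM were 15.5, 13.95, 13.1, 16.8 and 15.6 in WT and 9.14, 16.7, 17.2, 21.9 and 20.5 in mEC1dup/dup. Both genes had a tight WT group and a wide mEC1dup/dup group, in which replicate 1 was the lowest of all 10 libraries and replicate 4 the highest. The WT libraries spread over 1.18 times for *Krt8* and 1.28 times for *Krt18*, and the mEC1dup/dup libraries over 2.21 and 2.39 times. The log2 fold change of *Krt8* was 0.06 with a standard error of 0.17, a 95% interval of -0.31 to 0.43 and an adjusted p of 0.900 in edgeR. That of *Krt18* was 0.19 with a standard error of 0.18, a 95% interval of -0.20 to 0.58 and an adjusted p of 0.665. Those intervals leave room for a modest change in either direction.

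**Figure D2:**
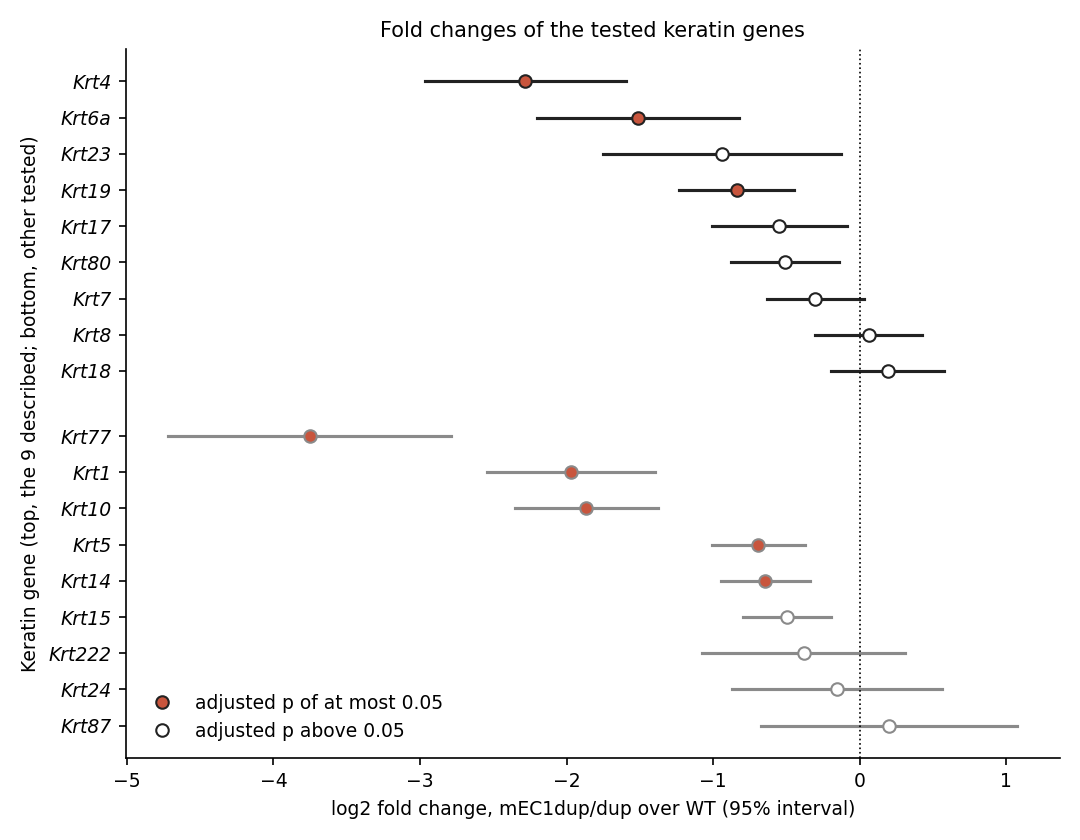
Log2 fold changes of mEC1dup/dup over WT with 95% intervals, for the 9 keratins (top) and the other 9 tested keratins (bottom); filled points passed an adjusted p of 0.05. *Krt4* is lowest of the 9 at -2.28, and *Krt8* and *Krt18* sit just right of 0.

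The libraries that set the extremes of *Krt8* and *Krt18* also set those of the inner ear epithelium. *Oc90* encodes a main protein of the otoconia, and its CPM were 175, 178, 229, 202 and 192 in WT and 39.0, 210, 204, 338 and 220 in mEC1dup/dup. All 4 of the inner ear markers listed (*Oc90*, *Otol1*, *Pax2* and *Fbxo2*) were highest in mEC1dup/dup replicate 4 and lowest in mEC1dup/dup replicate 1, as *Krt8* and *Krt18* were. Their summed CPM ran from 197 to 251 in WT and from 47.9 to 385 in mEC1dup/dup, and none of the 4 was at 0. Of all tested genes, 1.65% had these 2 libraries as their extremes. Within WT the order of the libraries was not shared, since the marker sum was highest in replicate 3, where both keratins were lowest. The epithelial adhesion gene *Epcam* and the companion genes *Cldn3*, *Cldn6*, *Cldn7*, *Prss8* and *Spint2* had the same 2 extremes, which were looked up after the values of *Krt8* were seen.

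With the log2 sum of the inner ear markers as a covariate, a fit added after the data were seen, the log2 fold change was 0.09 with a standard error of 0.09 for *Krt8* and 0.21 with a standard error of 0.09 for *Krt18*. The adjusted p in edgeR were 0.707 and 0.242, and the standard errors without the covariate were 0.17 and 0.18. That covariate was chosen because its extremes were seen to match those of *Krt8* and *Krt18*, so the fit restates the match, and the part of inner ear epithelium in these values was not tested. The same fit called *Krt4*, *Krt6a* and *Krt19* lower. Without mEC1dup/dup replicate 1, the fold changes were 0.21 for *Krt8* (adjusted p = 0.344) and 0.35 for *Krt18* (adjusted p = 0.0991) on the log2 scale. Without mEC1dup/dup replicate 4 or replicate 5, *Krt8* turned to -0.03 and -0.02, and *Krt18* went to 0.08 and 0.12.

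**Figure D3:**
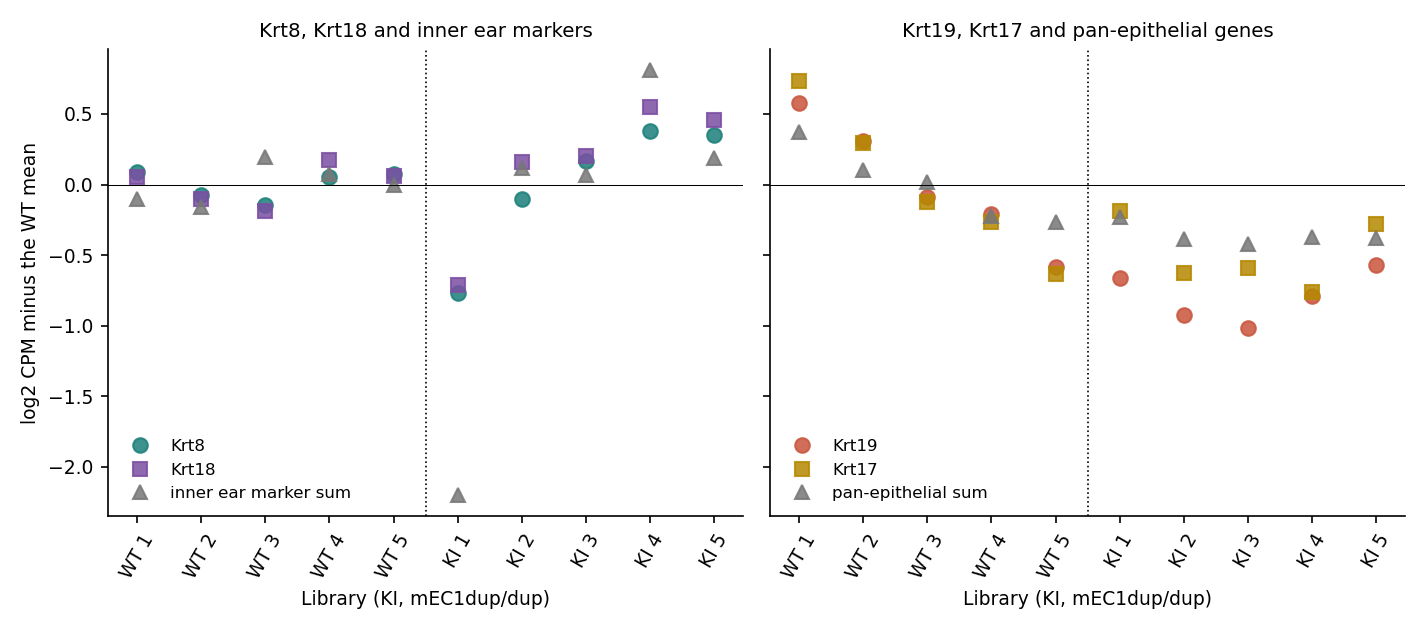
Log2 CPM minus the WT mean in each library, for *Krt8*, *Krt18* and the inner ear marker sum (left) and for *Krt19*, *Krt17* and the pan-epithelial sum (right). On the left, mEC1dup/dup replicate 1 is lowest and replicate 4 highest for all 3 series, and on the right WT replicate 1 is highest for all 3.

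Markers of other cell types were also counted. Among markers of mesothelium, 2 of 4 were tested and 0 were called, with a summed level of 0.942 to 2.83 CPM in WT and 1.41 to 2.65 CPM in mEC1dup/dup. Among markers of pharyngeal and middle ear epithelium, 2 of 4 were tested and 0 called, the sum ran from 1.16 to 2.53 CPM in WT and from 1.60 to 3.68 CPM in mEC1dup/dup, and *Nkx2-1* was at 0 in every library. Merkel cell markers (3 of 4 tested), salivary gland markers (2 of 4), endothelial markers (4 of 4) and fibroblast markers (4 of 4) gave 0 calls in edgeR. Of 6 surface epithelium markers, 2 were called lower, *Krt5* and *Krt14*, against 1.81% of all tested genes. The part of any of these cells in the keratin values was not tested.

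The level of each keratin relative to the others was compared after dividing CPM by the length of the annotated exons in kilobases. In WT, *Krt17* and *Krt19* were the most abundant at 14.8 ± 5.58 and 14.1 ± 4.44 CPM per kb (SD, n = 5). *Krt18* followed at 10.4 ± 1.02, *Krt4* at 9.76 ± 5.02 and *Krt8* at 7.91 ± 0.56 CPM per kb. Each of these 5 differed from its neighbour in the order by less than the larger of their SDs. *Krt7* (2.43 ± 0.64), *Krt6a* (1.37 ± 0.72), *Krt80* (0.609 ± 0.071) and *Krt23* (0.273 ± 0.085) followed, each apart from its neighbours by more than the larger SD by the length of all exons. As shares of the summed keratin level in WT, *Krt6a* and *Krt80* had 2.17 ± 0.76% and 1.03 ± 0.25% by that length. With the longest transcript as the length they lay closer, at 2.05% and 1.56%. The separation of *Krt6a* from *Krt80* thus depended on the length used.

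In mEC1dup/dup, *Krt18* led at 11.9 ± 3.45 CPM per kb (SD, n = 5), ahead of *Krt17* at 10.1 ± 1.73. *Krt8* at 8.24 ± 2.33 and *Krt19* at 7.90 ± 1.01 CPM per kb came next, and these 4 differed from their neighbours by less than the larger SD. *Krt4* at 2.00 ± 0.62 CPM per kb lay near *Krt7* at 1.97 ± 0.19 by the length of all exons. With the longest transcript as the length, *Krt4* lay below *Krt7*, at 4.31% against 7.43% of the sum of the 9. *Krt6a* at 0.477 ± 0.049, *Krt80* at 0.427 ± 0.088 and *Krt23* at 0.142 ± 0.083 CPM per kb closed the order, and the first 2 of these did not differ beyond their spread. The sum of the 9 ran from 46.6 to 87.9 CPM per kb in WT and from 37.7 to 50.7 in mEC1dup/dup, and those ranges overlap.

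As shares of that sum, *Krt4* went from 15.1 ± 3.53% in WT to 4.62 ± 1.30% in mEC1dup/dup (SD, n = 5). The lowest WT share of *Krt4* was 11.9% and the highest mEC1dup/dup share 6.26%. *Krt18* went from 17.8 ± 4.54% to 27.2 ± 6.07% and *Krt8* from 13.4 ± 3.19% to 18.8 ± 3.87%, with overlapping groups. *Krt17* had 23.5 ± 3.11% and 23.8 ± 5.45%, and *Krt19* 22.7 ± 2.41% and 18.4 ± 2.62%. A share can rise because others fall, so these are descriptions of make-up. With the longest transcript in place of all exons, the share of *Krt4* was 14.04% in WT and 4.31% in mEC1dup/dup. *Krt7* then had 6.30% and 7.43%, against 3.94% and 4.63% with all exons. *Krt80* had 1.56% and 1.55%, against 1.03% and 1.02%. The order changed too. In WT *Krt19* led *Krt17*, at 24.8% against 21.8%. In mEC1dup/dup *Krt19* stood above *Krt8*, at 20.2% against 17.6%, and *Krt80* above *Krt6a*, at 1.55% against 1.07%.

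**Figure D4:**
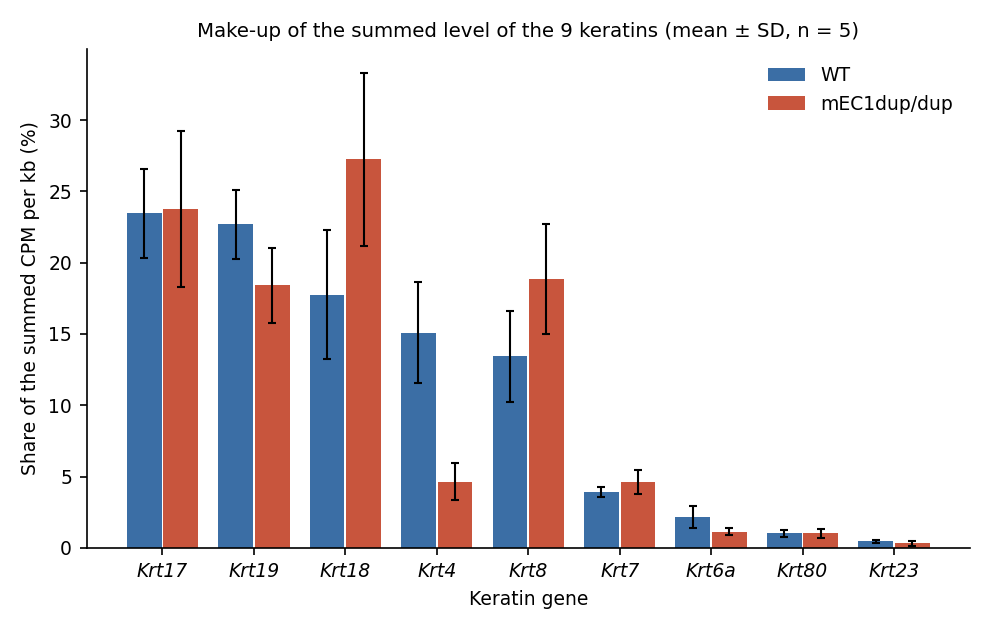
Share of each keratin in the summed CPM per kb of the 9, as mean and SD over 5 libraries per genotype. The share of *Krt4* is 15.1% in WT and 4.62% in mEC1dup/dup, and the bars of *Krt18* and *Krt8* are taller in mEC1dup/dup with overlapping libraries.

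Ratios between partners were taken per library on the same length-scaled levels, as descriptions with no test. The log2 ratio of *Krt8* to *Krt18*, which pair one to one in filaments, was -0.40 ± 0.07 in WT and -0.52 ± 0.09 in mEC1dup/dup (SD, n = 5), and the groups overlapped. The log2 ratio of *Krt7* to *Krt19* was -2.52 ± 0.11 in WT and -2.00 ± 0.25 in mEC1dup/dup, with every mEC1dup/dup library above every WT library. The log2 ratio of *Krt6a* to *Krt17* was -3.51 ± 0.57 and -4.39 ± 0.26, and the groups overlapped. *Krt13*, the usual type I partner of *Krt4*, had 0 to 9 reads per library and did not pass the count filter.

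Each keratin was also set against the summed level of 9 pan-epithelial genes, with *Epcam*, *Cdh1* and *Trp63* among them. Relative to that sum, *Krt4* was lower in mEC1dup/dup by a log2 difference of -1.86 and *Krt6a* by -1.01, with every mEC1dup/dup library below every WT library for both. For *Krt6a* the groups nearly met, at -8.353 in WT replicate 4 and -8.359 in mEC1dup/dup replicate 3. The share of all tested genes that separate in this way was not counted. The differences were -0.44 for *Krt19*, -0.74 for *Krt23*, -0.17 for *Krt80*, -0.13 for *Krt17*, 0.09 for *Krt7*, 0.36 for *Krt8* and 0.49 for *Krt18*, and the groups overlapped for these 7. The pan-epithelial sum itself was 709, 588, 555, 471 and 457 CPM in WT and 468, 421, 410, 424 and 423 CPM in mEC1dup/dup. With its log2 as a covariate, added after the data were seen, 0 of the 9 keratins were called in edgeR and 1 had an unadjusted p under 0.05. Calls over all 16426 tested genes went from 297 lower and 137 higher to 17 lower and 2 higher in that fit. Only WT replicate 5 was below any mEC1dup/dup library in the sum, which also holds *Perp*, a gene itself called lower. The fit could thus hardly tell the sum and the genotype apart. *Krt4* then had a log2 fold change of -1.40 with an adjusted p of 0.0944, *Krt6a* one of -0.64 (adjusted p = 0.447) and *Krt19* one of -0.21 (adjusted p = 0.573).

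WT replicate 1 had the highest value of 7 of the 9 keratins, that is, of all but *Krt8* and *Krt18*. Without it, *Krt4* was the only one of the 9 called, at a log2 fold change of -1.94 (adjusted p = 0.00395). *Krt6a* then had -1.16 with an adjusted p of 0.0417 but an average log2 CPM under 1, and *Krt19* had -0.67 (adjusted p = 0.0554). The log2 fold changes of *Krt17* and *Krt7* moved to -0.33 and -0.15 without that library. *Krt4* was called with each of the 10 libraries left out in turn. *Krt6a* also lost its call without WT replicate 3 (adjusted p = 0.0524) and without mEC1dup/dup replicate 2 (0.0684), replicate 3 (0.0715), replicate 4 (0.0634) or replicate 5 (0.0565). *Krt19* also lost its call without WT replicate 2 (adjusted p = 0.0770) and without mEC1dup/dup replicate 2 (0.0857), replicate 3 (0.0904) or replicate 4 (0.0656), all from edgeR.

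The groups also differed in measures that are not epithelial. *Hmx1*, the gene next to the added enhancer, had 21.7 to 29.1 CPM in WT and 52.8 to 77.5 CPM in mEC1dup/dup, a log2 fold change of 1.31 with an adjusted p of 0.000127 in edgeR. Embryonic globin genes made up 18.4% to 23.3% of globin counts in WT and 32.5% to 35.6% in mEC1dup/dup. *Xist*, the transcript of the inactive X chromosome of female cells, had at most 5 reads in each WT library. It had 12812, 19040, 18165, 2096 and 0 reads in mEC1dup/dup replicates 1 to 5. Embryo sex is not given, and *Xist* largely follows genotype, so sex and genotype could not be cleanly told apart. With the globin share as a covariate 0 of the 9 keratins were called and 2 had an unadjusted p under 0.05, and with the log2 CPM of *Xist* in the fit 0 were called and 4 had an unadjusted p under 0.05. Both fits left few calls in the whole table, with 0 lower and 0 higher genes with the globin share and 1 lower and 2 higher with *Xist*. With the globin share the log2 fold change of *Krt4* was 0.70 with a standard error of 0.97, and since that share separates the genotypes completely, it and the genotype cannot be told apart. With *Xist* it was -1.94 with a standard error of 0.53.

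Other keratins were measured alongside. Of 45 others in the table, 9 passed the count filter, 5 were called lower and 0 higher, and the median log2 fold change was -0.64. Over all tested genes 1.81% were called lower and 0.834% higher, and the median was -0.0041. *Krt77*, an epidermal type II keratin, changed by -3.75, and *Krt1* and *Krt10*, the pair of the suprabasal layers, by -1.97 and -1.86 on the log2 scale. *Krt5* and *Krt14*, the pair of the basal layer, changed by -0.69 and -0.64. *Krt4* thus had a fold change between those of *Krt77* and the suprabasal pair, and *Krt19* one near those of the basal pair, with no test of these differences. *Krt6b*, the near copy of *Krt6a*, had 0 to 2 reads per library and *Krt16*, the usual partner of *Krt6a*, 0 to 13, and neither was tested. Without mEC1dup/dup replicate 2, 3, 4 or 5, or WT replicate 2, 3 of the other keratins were called.

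Among 24 genes of periderm and surface epithelium, all tested, 5 were called lower and 0 higher in edgeR, against 1.81% and 0.834% of all tested genes. Of the 24, 21 had a negative log2 fold change and the median was -0.19, beside -0.0041 over all tested genes. *Lypd3*, a surface protein of differentiating keratinocytes, fell by 1.03 on the log2 scale (adjusted p = 0.0126). *Rab25*, a GTPase of epithelial recycling endosomes, fell by 0.99 (adjusted p = 0.0125) and *Grhl1*, a grainyhead-like transcription factor, by 0.98 (adjusted p = 0.0273). *Sfn*, the epithelial 14-3-3 protein, fell by 0.66 (adjusted p = 0.0182). The other 19 were not called, and among them *Grhl3*, a grainyhead-like transcription factor of the surface epithelium, stood at -0.44 on the log2 scale (adjusted p = 0.141). The claudins *Cldn3*, *Cldn4*, *Cldn6*, *Cldn7* and *Cldn23*, which seal tight junctions, had log2 fold changes of -0.0041, -0.18, 0.28, -0.08 and -0.20. Without WT replicate 2 or mEC1dup/dup replicate 2, 3 or 4, 3 of the list were called.

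Keratin filaments are anchored by plakins and by the plaque of desmosomes. Of 15 such linkers and organisers 14 were matched and tested, and 9 were called lower and 0 higher in edgeR, against 1.81% and 0.834% of all tested genes. The median log2 fold change was -0.51, beside -0.0041 over all tested genes. *Pof1b*, a filament-associated protein of epithelia, fell by 0.98 (adjusted p = 0.00990), *Pkp1*, a plakophilin of suprabasal desmosomes, by 0.84 (adjusted p = 0.0208), and the cornified envelope plakins *Ppl* and *Evpl* by 0.82 and 0.78 (adjusted p = 0.0250 and 0.0260). *Dsp*, the plakin that ties keratins to desmosomes, fell by 0.72 (adjusted p = 0.0235) and the small chaperone *Hspb1* by 0.64 (adjusted p = 0.0132). *Pkp2*, the plakophilin of simple epithelia, stood at 0.02 (adjusted p = 0.9747). With single libraries left out the count ran from 2 to 10, at 2 without mEC1dup/dup replicate 2 or 3, 3 without WT replicate 2, 4 without WT replicate 3 or mEC1dup/dup replicate 4, and 5 without WT replicate 1 or mEC1dup/dup replicate 5.

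Of the 9 pan-epithelial genes, 1 was called lower and 0 higher, against 1.81% and 0.834% of all tested genes. It was *Perp*, a desmosomal membrane protein, which fell by 0.79 (adjusted p = 0.0136), and 4 were called without WT replicate 4, 3 without WT replicate 5 and 2 without mEC1dup/dup replicate 1. With the DESeq2 test 3 of the 9 were called lower, and with no count filter 4. *Epcam* had a log2 fold change of 0.04 with adjusted p = 0.867 and *Cdh1*, which encodes E-cadherin, -0.45 (adjusted p = 0.0947). Of 13 intermediate filament genes that are not keratins, 1 was called lower and 0 higher, against the same shares of all tested genes. The gene called was *Lmna*, which encodes lamins A and C of the nuclear lamina, with a fall of 0.38 on the log2 scale (adjusted p = 0.0187). That call was lost without WT replicate 1 or 2 or mEC1dup/dup replicate 2 or 3. *Lmnb1*, which encodes lamin B1, had 370 to 412 CPM in WT and 425 to 444 CPM in mEC1dup/dup, with no overlap and a log2 fold change of 0.14 (adjusted p = 0.0529). With library totals, the DESeq2 test, limma-voom or the replicate block, 1 gene of the list was called higher. *Vim*, the filament gene of mesenchyme, stood at -0.09 on the log2 scale (adjusted p = 0.357).

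**Figure D5:**
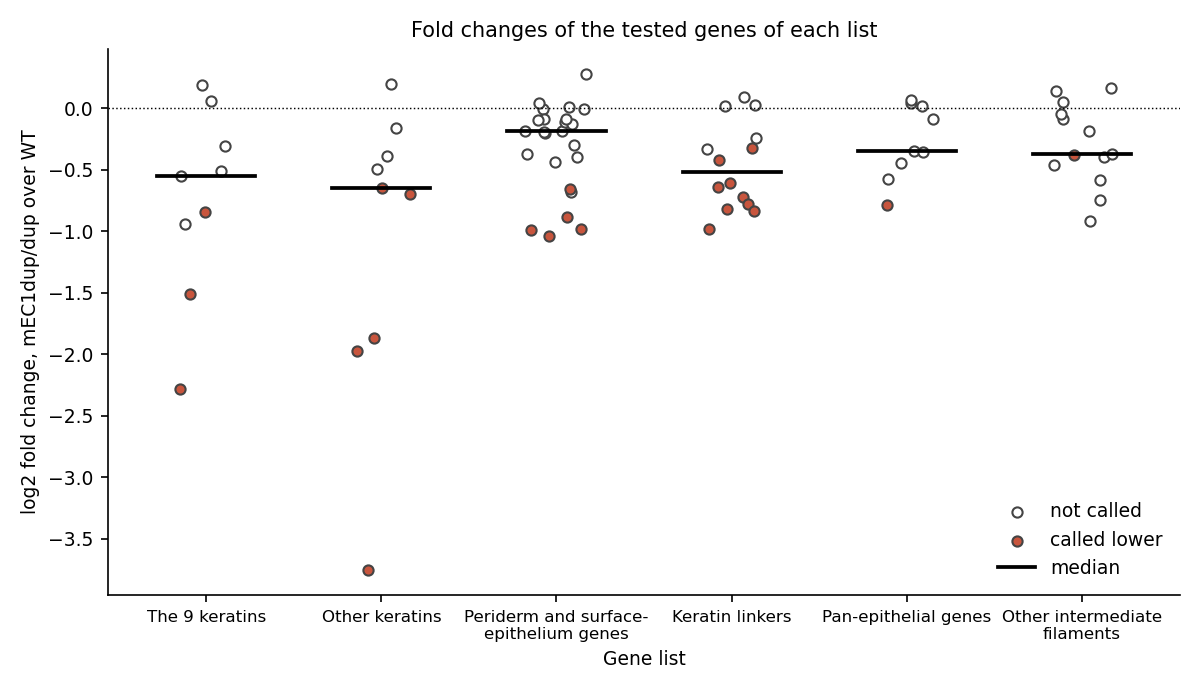
Log2 fold changes of mEC1dup/dup over WT for the tested genes of each list, with a bar at the median; filled points were called lower. The medians run from -0.64 for the other keratins to -0.19 for the periderm and surface-epithelium genes.

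For each keratin that was called, the genes with the most similar values across the 10 libraries were taken by the mean absolute difference of log2 CPM after centring on the WT mean. Those most like *Krt4* were *Tgm3*, *Serpinb3a* and *Krtdap*, at 0.37, 0.38 and 0.39, and they changed by -1.86, -1.99 and -1.72 on the log2 scale. *Tgm3* encodes a transglutaminase of the cornified envelope and *Krtdap* a secreted protein of differentiating keratinocytes. Those most like *Krt6a* were *Aqp3*, a water and glycerol channel of keratinocytes, *Scel*, which encodes the envelope protein sciellin, and *Hdc*, the histamine-forming enzyme of mast cells, at 0.27, 0.27 and 0.32. Among those most like *Krt19* were *Nipal4* and *Perp* at 0.10 and 0.12, closer than any of the genes named for *Krt4* or *Krt6a*. Outside that rule, and chosen after the values were seen, the nearest to *Krt18* was *Lypd1* at 0.09. The likeness uses the genotype difference as well as the libraries and is a description.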

How the data were processed

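Total RNA from micro-dissected pinna prominences gave 5 WT and 5 mEC1dup/dup libraries. The authors used fastp for trimming, STAR for alignment (GRCm39) and featureCounts for gene counts, and deposited raw counts. Strand use, annotation release and multimapping are not given in the sources used here, and the labels and methods name different library kits. Each library held 17461544 to 18462073 reads in genes, which limits the precision of low genes such as *Krt23*. Symbols came from GENCODE vM39, matching 49355 genes (unmatched, 0.111% of counts). Genes were filtered by filterByExpr, TMM-scaled and fitted with edgeR 4.0.16 in R 4.3.3 (glmQLFTest, genotype only). Alternatives used limma 3.58.1, DESeq2 1.42.0, other filters, scalings, covariates and left-out libraries. Shared transcript stretches were found with BLAST 2.17.0+. The test was tested on simulated data with the same dispersion for every gene and no outlying library, a simpler setting than these data. P-values measure the spread between these libraries. The text names the 9 keratins, *Hmx1*, at most 6 called genes per list, partner and layer keratins and the 3 nearest genes of each called keratin, with a few others named after their values were seen; some items under this rule are not reported here. The members and lists were chosen with earlier results of these data known.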

Additional observations from a re-analysis of the deposited data

How the results depend on the processing

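The call of 3 lower keratins was the same with DESeq2 size factors, library totals, no filter, a minimum of 10 counts (8 of 9 tested), the DESeq2 test, no level minimum and the inner ear covariate. It was 1 with limma-voom, where *Krt6a* had an adjusted p of 0.0693 and *Krt19* of 0.0540, 1 at an adjusted p of at most 0.01, 1 without both replicates 1 (chosen after seeing the data), and 0 with *Xist*, globin share or pan-epithelial sum as a covariate; the cause was not tested. Lower calls over all tested genes were 1, 0 and 17 with those covariates, against 297, and ran from 120 to 476 with single libraries left out. The count of lower keratins then ran from 1 to 3. With the globin share the log2 fold changes turned to 0.70 for *Krt4*, 1.53 for *Krt6a*, 1.04 for *Krt7*, 1.69 for *Krt17*, 1.23 for *Krt19* and 0.69 for *Krt23*. With the pan-epithelial sum they turned to 0.21 for *Krt7*, 0.22 for *Krt17* and -0.069 for *Krt8*. With single libraries left out *Krt8* ran from -0.031 to 0.209, and was below 0 without mEC1dup/dup replicate 4 or 5. The count of higher keratins was 0 under every alternative run.

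Replicate numbers were not taken to pair the samples, since no pairing by number is stated. The deviations of same-numbered libraries correlated at -0.06, 0.14, 0.18, 0.34 and 0.20, and 4 of the 5 pairs were over 0.1. The mean was 0.16, against -0.04 for other pairs, and 4 of 10 libraries correlated best with their own number. Whether same-numbered libraries share a litter or batch is not given. Blocking on the replicate number gave 487 lower genes in all, with 3 keratins called lower, at -2.20 for *Krt4*, -1.41 for *Krt6a* and -0.80 for *Krt19*, and the periderm and surface-epithelium list went from 5 to 8 calls and the pan-epithelial list from 1 to 5. Low counts limit *Krt23* and *Krt6a*.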
